A study of Mus musculus with 12 samples.

Results

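The genes described here were induced by doxorubicin in wild-type mouse embryonic stem (ES) cells and stayed low in drug-treated cells without Dux, and they lie outside the large multicopy families of the same response. They were chosen on CPM, counts scaled to the total of each library, averaged per group. A gene had at least 5 CPM in wild-type (WT) drug libraries, a WT drug over WT control ratio of at least 4 (0.5 CPM added to both), and a Dux knockout (KO) drug level below 10% of the WT drug level. Of 54532 genes, 663 met these limits. Symbols of predicted Gm and Rik genes and of the Zscan4, Usp17l, Tdpoz, Obox, Pram and Tcstv families removed 400 of them, and the 200 with the highest WT ratio among the other 263 are the members. WT drug, WT control and Dux KO drug values therefore chose the members, and those values, with any count of calls made from them, are given below as a description that supports nothing about the members.

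Poly(A) RNA was sequenced from E14 ES cells cultured in 2i+LIF medium, which holds ES cells in a naive state. The groups, with 2 libraries each, were p53 KO cells given drug and p53 KO cells given vehicle, Dux KO cells given drug and Dux KO cells given vehicle, and WT cells given drug and WT cells given vehicle. Drug meant doxorubicin at 1 uM for 6 h with a later change to medium without it, and control meant DMSO for the same time. How long the cells then grew is not stated in the sources used. The KO libraries came from lines numbered 1 and 2, whereas both WT libraries carry the name of 1 line, C4, so the spread between KO libraries also holds the difference between lines.

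Dux is a double-homeodomain transcription factor that is switched on briefly when the mouse embryo starts to transcribe its own genome at the 2-cell stage. It binds near cleavage-stage genes and in long terminal repeats of endogenous retroviruses, which can act as promoters for neighbouring genes. A small, changing fraction of ES cells enters this 2-cell-like state in culture. Doxorubicin traps topoisomerase II on DNA, which leaves double-strand breaks, and p53 is the transcription factor that such damage stabilises.

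One stretch of transcript sequence recurred among the members, and it is shown because no other stretch of its kind was in more members. Among words of 24 bases that held each base at least 3 times, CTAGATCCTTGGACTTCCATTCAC was in annotated GENCODE M21 transcripts of 10 members, the most for any word, and it was picked after the sequences had been compared. The same word was in 48 of 399 genes left out by name (12.03%) and in 176 of 54409 genes of the table (0.323%). It was in 1 of 304 other induced genes whose Dux KO drug level was at least 10% of the WT drug level (0.329%). The choice of the word raises its share in members. Words in equally many members were ranked by how few other genes held them, which can lower the other shares. All these shares are thus a description only. In all 10 members the word lay in exon 1 of at least 1 annotated transcript. Its first base was between base 3 and base 168 in the transcript of each member where it lay nearest the start. Base 168 is that of Ubtfl1, in exon 2 of the transcript printed below. In another Ubtfl1 transcript the word lay in exon 1, from base 284. Lines below give 30 bases of 5 of these transcripts, 5′ to 3′ on the transcribed strand, with the shared word in capitals and 3 bases on each side. The positions, on GRCm38, are chr12:118924518-118924547 (-) for Abcb5, a transporter of the ATP-binding cassette family, chr7:127732083-127732112 (-) for Ctf2, a cytokine of the cardiotrophin family, chr9:18402906-18402935 (-) for Naalad2, a peptidase, chr10:45178126-45178155 (+) for Popdc3, a membrane protein, and chr9:18404700-18404729 (+) for Ubtfl1, a testis and early-embryo relative of the ribosomal DNA factor UBF. The 5 genes lie on 4 chromosomes, and in Ubtfl1 the last bases printed differ from those of the other 4. Whether the 3 bases on each side lie in the same exon as the word was not checked.
Abcb5: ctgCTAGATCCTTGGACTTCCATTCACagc
Ctf2: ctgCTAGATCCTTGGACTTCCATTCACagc
Naalad2: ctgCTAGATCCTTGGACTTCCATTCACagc
Popdc3: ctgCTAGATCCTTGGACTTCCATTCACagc
Ubtfl1: ctgCTAGATCCTTGGACTTCCATTCACgct

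Annotated promoters held few copies of the Dux motif. RefSeq promoter windows on GRCm38.p6, from 250 bases before to 50 after the gene start, matched 133 of the 200 members by symbol. The letters GATTCAATC, the inner part of the Dux motif, were searched on both strands and were in 1 member promoter of 133, in 13 of 110 promoters of genes left out by name, and in 49 of all 32851 (0.149%). That member was Duxf3, the Dux gene itself, whose window at chr10:58233040-58233339 (-) is printed below with the match in capitals. The letters TATAAA, on either strand, were in 28 of 133 member promoters (21.1%) and in 13.6% of all promoters. Genes left out by name had a share close to that of the members, 22 of 110 promoters (20%). The 28 member promoters included that of Dkk1, at chr19:30549447-30549746 (-). Dkk1 is a secreted inhibitor of Wnt signalling with one of the smallest p-values in p53 KO cells below. A match is a description of these letters in this window only.
Duxf3: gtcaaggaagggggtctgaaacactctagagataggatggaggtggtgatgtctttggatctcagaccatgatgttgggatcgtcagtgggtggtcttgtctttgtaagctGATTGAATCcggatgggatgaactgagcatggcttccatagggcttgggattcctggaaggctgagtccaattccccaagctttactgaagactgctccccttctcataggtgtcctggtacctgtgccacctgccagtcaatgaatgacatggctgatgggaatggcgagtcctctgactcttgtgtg
Dkk1: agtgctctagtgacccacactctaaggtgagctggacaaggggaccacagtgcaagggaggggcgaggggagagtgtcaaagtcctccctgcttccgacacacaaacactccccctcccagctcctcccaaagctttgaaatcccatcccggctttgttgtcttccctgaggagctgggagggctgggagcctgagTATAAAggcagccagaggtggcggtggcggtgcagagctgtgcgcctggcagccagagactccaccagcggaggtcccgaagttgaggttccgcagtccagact

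Duxf3 was the gene deleted in Dux KO cells, and its reads check the labels. It had 0 counts in both Dux KO drug libraries and 0 in the Dux KO control library. In p53 KO cells it had 114 and 20 counts in drug libraries and 0 and 14 in control libraries, and in WT cells 670 and 685 in drug libraries and 2 and 0 in control libraries. Each library had between 23270358 and 56795858 counts, so 3 counts, the most that a count of 0 allows, correspond to 0.0528 to 0.129 CPM for counting error only. In the count table, the column for the second Dux KO control repeated Dux KO drug library 1 in 54532 of 54532 genes and was left out. The remaining Dux KO control stands alone, and tests that use it borrow the spread of the other groups. The counts cover whole gene spans with introns and ignore strand. ES cell markers (Pou5f1, Sox2, Nanog and 7 others) were present in every library, with a summed level of 3325 to 3574 CPM in p53 KO drug libraries and 4821 to 4830 in p53 KO controls, 2344 to 2568 in Dux KO drug libraries and 5174 in the Dux KO control, and 1004 to 1227 in WT drug libraries and 5399 to 5501 in WT controls. Primitive endoderm markers summed to 116 to 123 CPM in p53 KO drug libraries and 64.6 to 102 in p53 KO controls, and trophectoderm markers to 162 to 219 and 130.2 to 233. Fibroblast markers (10 genes, 8 of them tested) summed to 191 to 287 CPM in p53 KO drug libraries and 105 to 120.2 in p53 KO controls. Of these, 2 rose, Vim and Pdgfra (edgeR adjusted p = 0.0271 and 0.0365). Vim averaged 205 CPM in p53 KO drug libraries and 96.5 in p53 KO controls, Pdgfrb 18.9 and 9.68, Thy1 8.71 and 3.69, and Pdgfra 3.69 and 0.867. Col1a1 averaged 2.14 and 1.40 CPM, Col1a2 was lower with drug, at 0.198 and 0.315, and Dcn was at 0 in all p53 KO libraries. The p53 target list (30 genes) had 6 up and 3 down in p53 KO cells. Their part in the members' response was not tested.

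Across the 200 members, the levels in drug-treated p53 KO cells were a small part of those in drug-treated WT cells. The choice did not limit the p53 KO levels, but it took genes by their WT drug level and ratio, which favours a low share. Mean levels in drug-treated Dux KO cells were held below 10% of the WT drug level by the choice itself. The members summed to 1019 and 614.2 CPM in p53 KO drug libraries and to 299.9 and 284.6 in p53 KO controls. They summed to 353.0 and 376.9 CPM in Dux KO drug libraries and to 209.5 in the Dux KO control, and to 13201 and 15735 CPM in WT drug libraries and 228.5 and 218.7 in WT controls. Both WT drug libraries were above every other library in 200 of 200 members, which the choice of members nearly fixes. Per gene, the median member stood at 6.06% and 2.71% of its WT drug level in p53 KO drug libraries 1 and 2, at 1.35% and 1.08% in p53 KO controls, at 1.06% and 1.10% in Dux KO drug libraries and at 0.396% in the Dux KO control. Both p53 KO drug libraries were above both Dux KO drug libraries in 150 members, against 40.1% of all tested genes, and the reverse held in 9, against 29.6%, an order that the limit on the Dux KO drug level favours. Before drug, both p53 KO controls were already above the Dux KO control in 140 members, against 31.6% of all tested genes. That control did not enter the choice, but it comes from Dux KO line 1, whose drug library did, which may favour this order too. In bulk RNA, fewer cells of a type and less RNA per cell cannot be told apart.

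**Figure D1:**
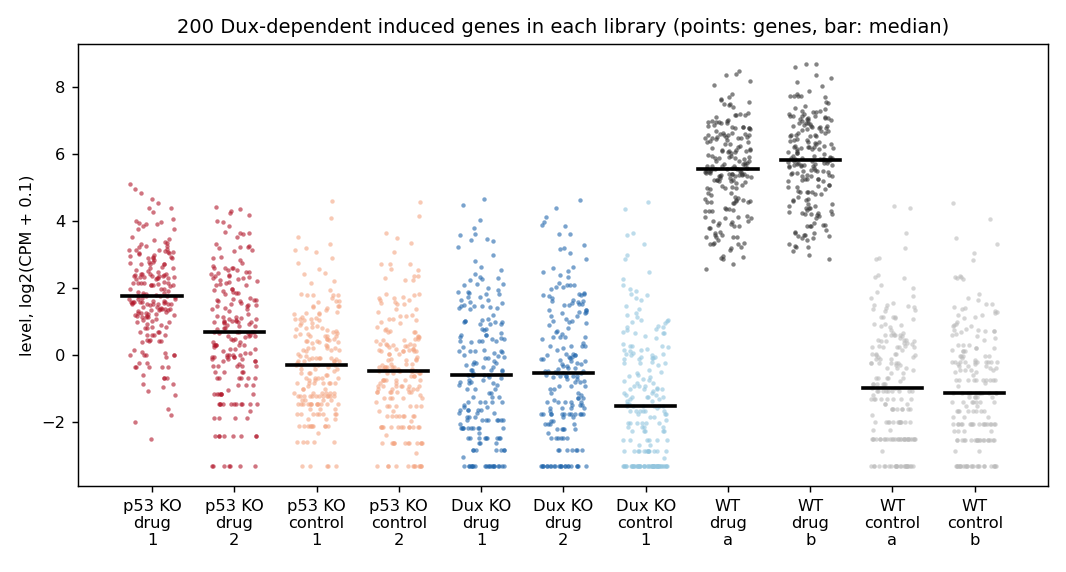
Level of each of the 200 members in each of 11 libraries, as log2(CPM + 0.1), with a black bar at the median over genes. WT drug libraries stand above all others, p53 KO drug library 1 lies above library 2, and Dux KO drug libraries lie near the controls.

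The p53 KO libraries played no part in the choice of members, so the response of p53 KO cells to the drug is the comparison that can be tested. In edgeR's quasi-likelihood test over 28643 genes, 78 of 200 members rose in p53 KO drug cells against p53 KO control cells at an adjusted p under 0.05 and 0 fell, where 9.31% of all tested genes rose and 8.09% fell. At an unadjusted p under 0.05, 134 members rose. The median log2 fold change of the members was 1.58 (quartiles 1.05 and 2.13), or 1.56 with the members at 0 in both controls set to their lower bound, against 0.18 over all tested genes, and 195 members had a positive value. Both p53 KO drug libraries lay above both controls in 157 members (78.5%) and in 46.8% of all tested genes. The samples pair by line, and with the line as a block 146 members rose, against 21.6% of all tested genes. DESeq2 on the same libraries called 109 members up, against 7.72% of the genes it tested, and limma on log2(FPKM + 0.1) called 23 (11.5%), against 7.59%, with a median of 0.33 on that scale, which understates low genes. Leaving out 1 library moved the edgeR count most without p53 KO control 2 (39 members up) and without p53 KO drug 2 (138), and gave 41 without p53 KO drug 1, 50 without p53 KO control 1, and 46 and 43 without WT drug library a or b. All 200 members passed the filter on low counts because of their WT drug counts, so the share that passed is no support for a response.

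The 2 p53 KO lines differed in how far the members rose. In line 1 the drug library exceeded its control by a median log2 ratio of 1.45 (0.5 CPM added), and 160 members rose at least 2-fold, against 0.77 and 68 members in line 2. Over all tested genes the medians were 0.29 in line 1 and 0.35 in line 2, so the order of the lines was the opposite one. Drug library 1 was above drug library 2 in 171 of 200 members (85.5%) and in 42.9% of all tested genes. Duxf3 itself had 4.25 CPM in drug library 1 and 0.859 CPM in drug library 2, against 0 and 0.427 CPM in the controls of lines 1 and 2. Without p53 KO drug library 1 the median log2 fold change of the members was 0.68, with 41 members up and 3 down, and without library 2 it was 2.03, with 138 up. The part of the lines' Dux level in these differences was not tested.

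**Figure D2:**
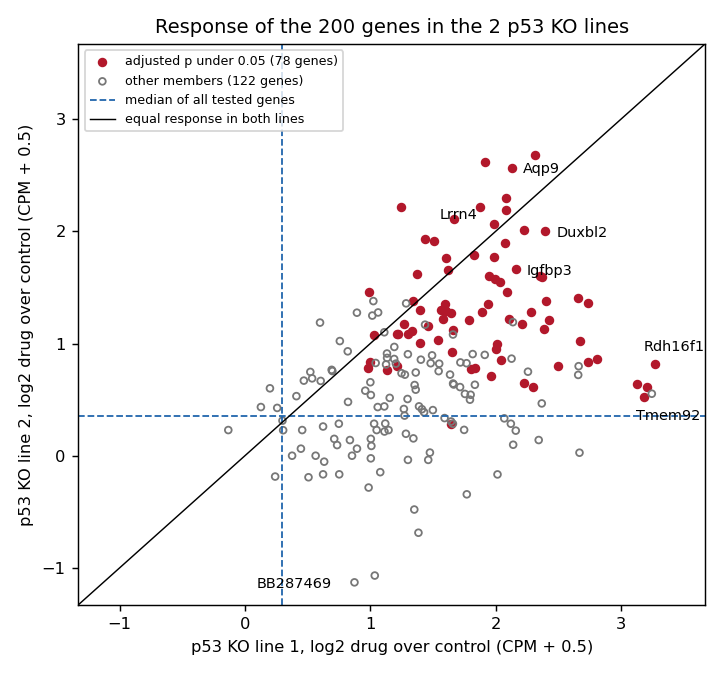
Log2 ratio of drug over control within p53 KO line 1 (horizontal) and line 2 (vertical), from CPM + 0.5, for the 200 members. Filled points are the 78 members at an adjusted p under 0.05, dashed lines are the medians of all tested genes (0.29 and 0.35), and most members lie below the diagonal of equal response.

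Induced genes that depended less on Dux also rose in p53 KO cells. The 304 genes with the same level and name limits, a WT ratio at least that of the last member and a Dux KO drug level of at least 10% of the WT drug level had 145 genes up (47.7%) and 1 down, with a median log2 fold change of 1.93 by the same edgeR test. With the line as a block 245 of them rose (80.6%). Their median WT ratio was 22.1, against 45.1 in the members, and their median WT drug level 32.0 CPM, against 51.6 CPM. The 2 sets were thus not matched for induction or level. The median level in p53 KO drug libraries 1 and 2 was 6.06% and 2.71% of the WT drug level for the members, against 5.81% and 4.21% for the 304 genes. Drug library 1 was above library 2 in 85.5% of the members and in 199 of the 304 (65.5%). In Dux KO drug libraries, which divided the 2 sets, their medians were 49.4% and 64.6%. No test of the difference between the 2 sets was made.

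Members with the smallest adjusted p in p53 KO cells had similar values in both lines, which a ranking by p favours. Aqp9, a channel for water, glycerol and urea, had 6.52 and 9.33 CPM in p53 KO drug libraries, against 1.10 and 1.16 CPM in p53 KO controls. It had 0.748 and 0.622 CPM in Dux KO drug libraries and 0.335 in the Dux KO control, and 62.2 and 75.4 CPM in WT drug libraries and 1.40 and 0.977 in WT controls. The p53 KO groups did not overlap, and its log2 fold change in p53 KO cells was 2.46 (SE 0.26, edgeR adjusted p = 0.00171). Dkk1 had 3.35 and 2.75 CPM in p53 KO drug libraries, against 0.325 and 0.305 CPM in p53 KO controls, a log2 fold change of 2.94 (SE 0.35, edgeR adjusted p = 0.00231). Mecom, a zinc finger transcription factor of blood stem cells, had 8.76 and 8.59 CPM in p53 KO drug libraries and 1.69 and 1.49 CPM in p53 KO controls, with a log2 fold change of 2.11 (SE 0.26, edgeR adjusted p = 0.00256). In these 3 genes the drug libraries of the p53 KO lines stood far above either control, yet reached 11.5%, 8.04% and 8.15% of the WT drug level.

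The 5 members that kept most of the WT drug level without p53 stood between 26.1% and 34.7% of it. Igfbp3, a secreted carrier of insulin-like growth factors, had 24.96 and 19.4 CPM in p53 KO drug libraries and 5.196 and 5.79 CPM in p53 KO controls, against 70.6 and 78.3 CPM in WT drug libraries. It stood at 29.8% of the WT drug level and rose in p53 KO cells with a log2 fold change of 1.69 (SE 0.21, edgeR adjusted p = 0.00258). In Dux KO cells it had 4.65 and 4.93 CPM with drug and 4.19 CPM without. Lrrn4, a leucine-rich repeat membrane protein, had 7.68 and 16.0 CPM in p53 KO drug libraries, against 1.56 and 3.44 CPM in p53 KO controls (log2 fold change 1.88, SE 0.43, edgeR adjusted p = 0.0194). It was lower in Dux KO drug libraries, at 0.551 and 0.583 CPM, than in the Dux KO control, at 1.87 CPM. Duxbl1 and Duxbl2, homeobox genes related to Dux, stood at 29.3% and 34.7% of the WT drug level, but they share 93.5% and 100% of the 50-base words of their transcripts with other genes, so reads could be divided between copies. Csrnp3, a nuclear protein, stood at 32.2%, with 9.31 and 12.7 CPM in p53 KO drug libraries and 4.35 and 5.06 CPM in p53 KO controls, and did not pass the test (log2 fold change 0.88, SE 0.35, edgeR adjusted p = 0.111), but passed with the line as a block (edgeR adjusted p = 0.0259).

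At the other end, Magel2, a member of the MAGE ubiquitin ligase regulators, had 0.671 and 0.0859 CPM in p53 KO drug libraries and 0.130 and 0.0610 CPM in p53 KO controls. It had 1.93 and 2.84 CPM in Dux KO drug libraries and 0.0352 in the Dux KO control, against 28.4 and 29.3 CPM in WT drug libraries. Its p53 KO drug level was thus 1.31% of the WT drug level, and its Dux KO drug level 8.25%. Other low members were Olfr329-ps, Stmn4 and Slc22a28, at 1.09%, 1.18% and 1.52% of the WT drug level in p53 KO drug libraries. A negative log2 fold change in p53 KO cells was seen in 5 members, and none of these passed the edgeR test. They were BB287469, Serpinb1c, Mblac2, Rhbdd1 and Stmn4, of which Serpinb1c, Mblac2 and Rhbdd1 were named after their values were seen.

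**Figure D3:**
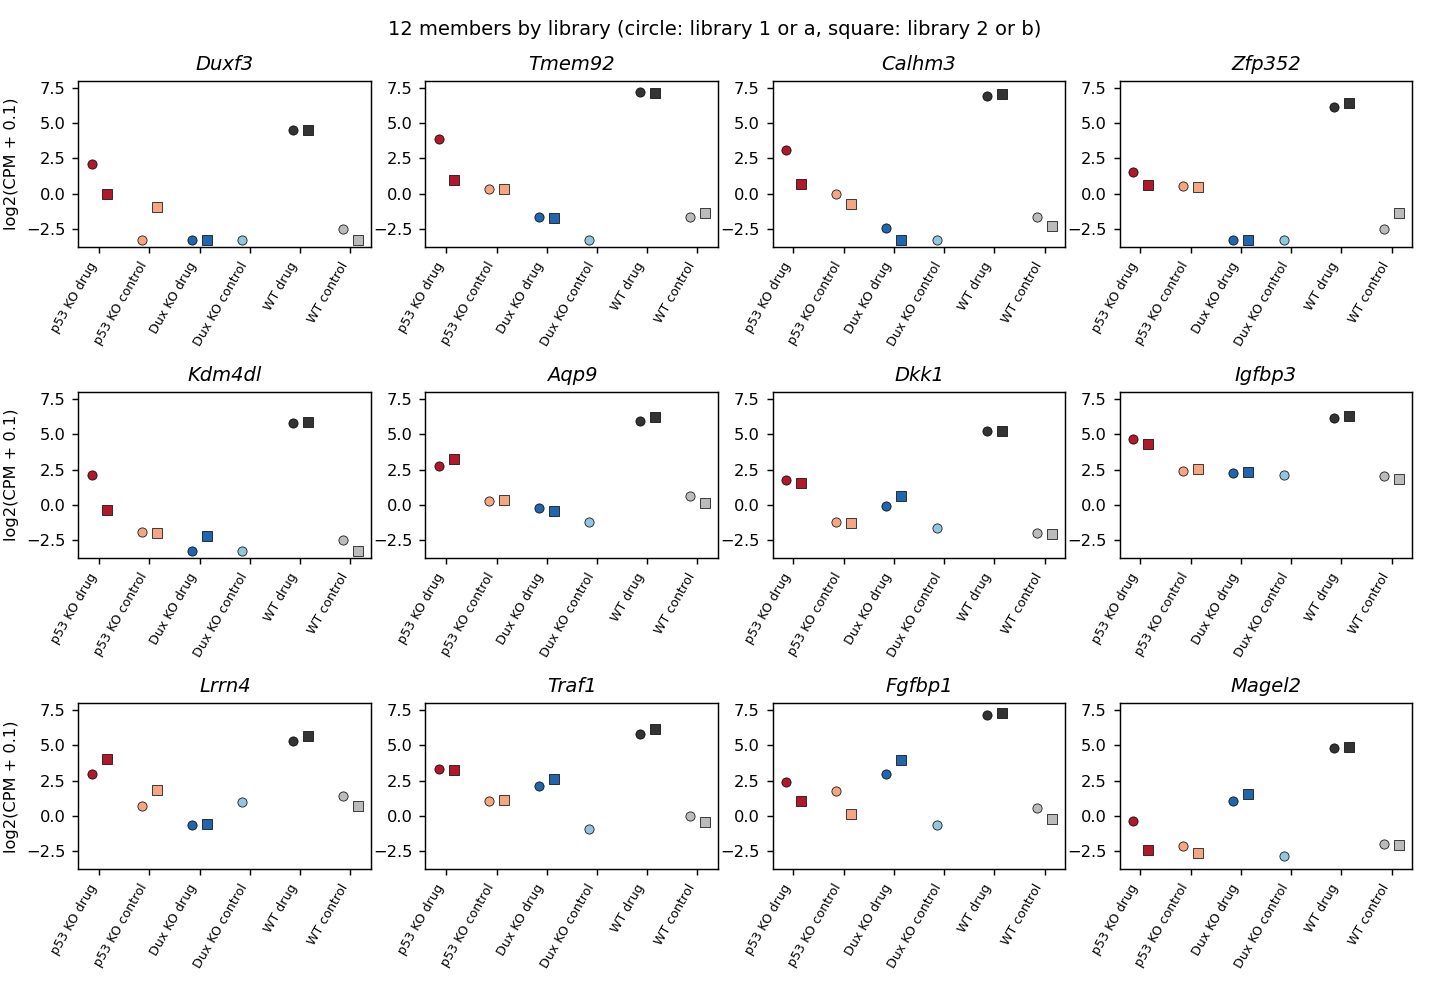
Level of 12 members in each library, as log2(CPM + 0.1), with p53 KO, Dux KO and WT groups from left to right and drug left of control. Igfbp3, Lrrn4 and Aqp9 stand high in both p53 KO drug libraries, whereas Fgfbp1 and Magel2 stand higher in Dux KO drug libraries than in p53 KO drug libraries.

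Of 28 single-copy or low-copy genes known from the 2-cell stage, 11 were among the members. Tmem92, a membrane protein, had the highest WT ratio of these, with 14.3 and 1.89 CPM in p53 KO drug libraries and 1.14 and 1.16 CPM in p53 KO controls, 0.217 and 0.194 CPM in Dux KO drug libraries and 0 in the Dux KO control, and 149.0 and 142.0 CPM in WT drug libraries and 0.222 and 0.279 CPM in WT controls. Zfp352, a zinc finger protein widely used as a mark of the 2-cell-like state, had 2.83 and 1.46 CPM in p53 KO drug libraries and 1.36 and 1.28 in p53 KO controls. It had 0 counts in all 3 Dux KO libraries, and 69.9 and 84.9 CPM in WT drug libraries against 0.0739 and 0.279 CPM in WT controls. Tmem92, Kdm4dl (a histone demethylase relative) and Nat8f2 (an acetyltransferase relative) rose in p53 KO cells, with log2 fold changes of 2.55, 3.64 and 2.19 and edgeR adjusted p of 0.0472, 0.0362 and 0.0117. Tmem92 and Kdm4dl rested on drug library 1, without which their log2 fold changes were 0.30 and 1.69, and their calls were lost in 9 and 7 of the 11 fits that left out 1 library. Adding the recovered Dux KO control to the fit also ended the call of Tmem92 (edgeR adjusted p = 0.0510). Arg2, Sp110, Ubtfl1, Lmx1a, Zfp560, Abcb5, Spz1 and Zfp352 did not pass, with log2 fold changes between 0.39 and 1.97, but with the line as a block all of them except Arg2 and Zfp352 rose (edgeR adjusted p between 0.00100 and 0.0141). Over the whole list, 5 of 28 rose in p53 KO cells and 0 fell, beside the 9.31% of all tested genes that rose.

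The other 17 of the 28 were not members, most for a WT ratio below the limit or the rank. Nelfa, a subunit of the negative elongation factor, had a Dux KO drug level of 8.21% of the WT drug level but a WT ratio of 9.40, and ranked below the members. Ddit4l, an inhibitor of mTOR signalling, had 34.2% and P4ha2, a collagen prolyl hydroxylase, 24.98%, above the limit of 10%. Of the 400 genes left out by name, 52 (13%) rose in p53 KO cells and 1 fell by the same test. Of all tested genes 9.31% rose. With the line as a block 174 of the 400 (43.5%) rose, against 21.6%. The median level of the 400 was 5.34% and 1.45% of the WT drug level in p53 KO drug libraries 1 and 2. In Dux KO drug libraries it was 0.154% and 0.192%. Most of the 400 were predicted genes, 321 Gm and 39 Rik, of which 39 and 12 rose. In the families, 1 of 19 Obox genes rose, and none of the 9 Zscan4, 5 Usp17l, 3 Tdpoz, 2 Pram and 2 Tcstv genes. With the line as a block 11 Obox, 2 Zscan4, 2 Usp17l and 1 Tcstv gene rose.

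Transcription factors and chromatin proteins numbered 18. Of these, 4 rose in p53 KO cells and 14 with the line as a block. For this and the other roles below, 39% of all members and 9.31% of all tested genes rose. With the line as a block these shares were 73% and 21.6%. Differences between roles were not tested. By FPKM, which divides by gene length (here the gene span), the genes with high levels in WT drug libraries included Kdm4dl with a mean of 49.1 FPKM, Spz1, a testis bHLH zipper protein, with 17.1 and Zfp352 with 11.4. Kdm4dl had 4.14 and 0.688 CPM in p53 KO drug libraries, against 0.162 and 0.152 CPM in p53 KO controls. Sp110 and Sp140, chromatin readers of the nuclear body family, are neighbours on chromosome 1, and Sp110 had 1.87 and 2.78 CPM in Dux KO drug libraries but 0 counts in the Dux KO control, at least 44.0-fold higher against the floor of 3 counts. In WT drug libraries Sp110 had 83.2 and 95.6 CPM.

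Ligands and secreted proteins had 10 of 16 members up in p53 KO cells and 14 with the line as a block, beside 39% and 73% of all members. Their median log2 fold change was 2.01. Beside Dkk1 and Igfbp3, Fgfbp1, a carrier that releases fibroblast growth factors, was the highest at 52.3 FPKM in WT drug libraries. Fgfbp1 had 5.07 and 1.98 CPM in p53 KO drug libraries and 3.38 and 0.975 CPM in p53 KO controls, which did not pass the test (log2 fold change 0.40, SE 0.63, edgeR adjusted p = 0.697). It had 7.76 and 15.5 CPM in Dux KO drug libraries and 0.528 CPM in the Dux KO control. Ccl3, a chemokine for leukocytes, had 0.671 and 0.0859 CPM in p53 KO drug libraries and 0.0650 and 0 in p53 KO controls. Its p53 KO controls were at or below the level of 3 counts.

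Channels and transporters had 10 of 14 members up in p53 KO cells and all 14 with the line as a block, beside 39% and 73% of all members. Calhm3, a subunit of an ATP-releasing ion channel of taste cells, had the highest level among them, 21.5 FPKM in WT drug libraries. It had 8.27 and 1.50 CPM in p53 KO drug libraries and 0.877 and 0.488 CPM in p53 KO controls, so the lines differed, and its log2 fold change was 2.57 (SE 0.77, edgeR adjusted p = 0.0497), but 0.73 without drug library 1, and the call was lost in 9 of the 11 fits that left out 1 library. Cacna1s, the pore subunit of the skeletal muscle calcium channel, had 10.7 and 2.66 CPM in p53 KO drug libraries and 1.17 and 0.732 CPM in p53 KO controls. Kcne1, a potassium channel subunit, had 3.06 and 1.20 CPM in p53 KO drug libraries and 0.195 and 0.0610 CPM in p53 KO controls, with a log2 fold change of 3.74 (SE 0.64, edgeR adjusted p = 0.00705). Of the Cacna1s reads in WT drug libraries, up to 26.5% fall in an annotated gene inside it, Gm37759, which unstranded counting over the gene span cannot separate.

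Receptors had 6 of 18 members up in p53 KO cells and 13 with the line as a block. Neto2, an auxiliary subunit of kainate receptors, had 30.9 and 15.6 CPM in p53 KO drug libraries, against 5.36 and 6.46 CPM in p53 KO controls, and rose with a log2 fold change of 1.67 (SE 0.33, edgeR adjusted p = 0.012). Clec10a, a macrophage lectin, had 5.07 and 0.516 CPM in p53 KO drug libraries, against 0.877 and 0.640 CPM in p53 KO controls, and did not pass (edgeR adjusted p = 0.23). Its 2 p53 KO drug libraries lay on opposite sides of both controls. Grin2a, a subunit of the NMDA glutamate receptor, was among the 10 highest WT ratios, with 361.9 and 414.8 CPM in WT drug libraries and 1.59 and 1.01 CPM in WT controls. Chrm3, a muscarinic acetylcholine receptor, was also among these 10, and Gm47404, an annotated gene inside it, covers 42.2% of its WT drug counts.

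Intracellular signalling proteins had 7 of 12 members up in p53 KO cells and 10 with the line as a block. Traf1, an adaptor of tumour necrosis factor receptors, had 10.1 and 9.28 CPM in p53 KO drug libraries, against 2.01 and 2.13 CPM in p53 KO controls (log2 fold change 1.89, SE 0.26, edgeR adjusted p = 0.00358). It had 4.21 and 5.91 CPM in Dux KO drug libraries and 0.423 CPM in the Dux KO control. Enzymes had 7 of 20 up and 15 with the line as a block, and included the retinol dehydrogenase genes Rdh1, Rdh16f1 and Rdh9, which overlap or adjoin on chromosome 10. Rdh1 had 6.71 and 0.945 CPM in p53 KO drug libraries, against 0.325 and 0.427 CPM in p53 KO controls, and 94.8 and 115.0 CPM in WT drug libraries. All 50-base words of the Rdh16f1 transcripts occur in other genes, so its counts may be divided with its neighbours.

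Proteins of RNA and ubiquitin pathways had 5 of 10 members up in p53 KO cells and 8 with the line as a block. Trim75, a tripartite motif protein, was the highest at 16.96 FPKM in WT drug libraries, with 9.46 and 1.12 CPM in p53 KO drug libraries and 1.43 and 0.671 CPM in p53 KO controls. Drug library 2 lay below control 1, and Trim75 did not pass (edgeR adjusted p = 0.115), but within each line the drug library was the higher one, and with the line as a block it rose (edgeR adjusted p = 0.00218). Neuronal adhesion and synapse proteins had 4 of 10 up and 9 with the line as a block. They spanned a median of 601 kb and had a median of 0.120 FPKM in WT drug libraries, so their CPM came from long introns and exons together. Olfactory and vomeronasal receptors had 0 of 10 up by edgeR and 5 with the line as a block. Their median level was 4.24% and 0.864% of the WT drug level in p53 KO drug libraries 1 and 2. Their median log2 fold change was 2.25, but p53 KO controls of several were under 3 counts, which set no fold. The single germline gene assigned, Spesp1, a sperm equatorial segment protein, rose with a log2 fold change of 1.55 (SE 0.46, edgeR adjusted p = 0.0468). That value was 0.49 without drug library 1, and the call was lost in 9 of the 11 fits that left out 1 library and with the recovered Dux KO control added. A further 71 members had no role assigned, and 24 of them rose.

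The response of Dux KO cells cannot be tested on the members, since the Dux KO drug libraries entered the choice. As a description, edgeR called 40 members up and 4 down against the single Dux KO control, where 14.5% of all tested genes rose and 11.9% fell. With the block for the p53 KO line 62 were called up, against 22.5% of all tested genes. That block has no term for Dux KO libraries and reaches them only through the shared estimate of spread. Without Dux KO drug library 2 the median log2 fold change of the members was 0.52. By limma on FPKM 12 were called up (6%), below the 13.1% of all genes it tested. These are counts of calls, and the next value is again a median log2 fold change. With all libraries of the main edgeR fit it was 0.67 over the members. Of the 40, 11 had 0 counts in the Dux KO control, so their size depends on the floor. The 4 called down were Lrrn4, Serpinb1c, Cadps and Adamts19, of which the last 3 were named after their values were seen. In WT cells 200 of 200 rose by the same test, where 29% of all tested genes rose, which the choice of members fixes. The FPKM of the left-out Dux KO control library gave the same picture as the other control, with a sum of 4.21 against 4.25 FPKM over the members and 54 members listed at 0 in each.

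Gene length and neighbours are given as a description, without a test. The members' median span was 47.7 kb, against 25.1 kb in the 304 other induced genes and 13.6 kb in the other tested genes. Spans of at least 200 kb were found in 48 members (24%), against 7.24% of the 304 genes and 3.67% of the other tested genes. At an equal FPKM a longer gene has a higher CPM. The 304 genes passed the same CPM limit but were less induced. Another gene that met the limits of level, induction and Dux dependence, whatever its name, lay within 100 kb of 44 members (22%). That share was 7.24% of the 304 genes and 5.51% of the other tested genes. Distance was taken from both ends of the span, so longer genes had a wider window. Overlapping genes counted as neighbours, and they share reads in these counts. Another member lay within 100 kb of 17 members, such as Sp110 and Sp140, Ubtfl1 and Naalad2, Tmem92 and AA623943, and Duxf3 and AW822073. An annotated gene lay inside 76 members (38%) and 36.5% of the 304 genes, and in 11 members it covered over 25% of the WT drug counts. These included AC154806.1, where Ear1, a ribonuclease of eosinophils and itself a member, covers 97.5%.

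**Figure D4:**
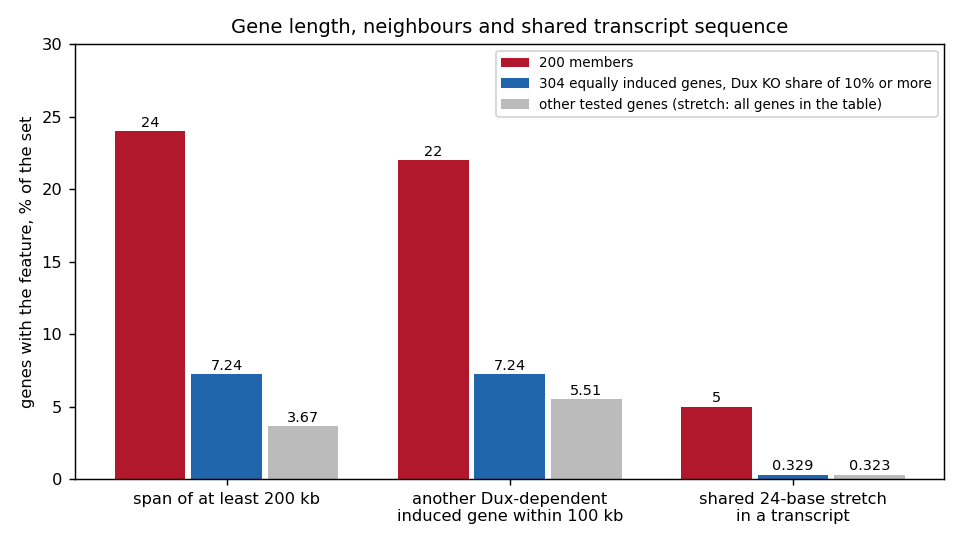
Share of genes spanning at least 200 kb, with another Dux-dependent induced gene within 100 kb, or with the 24-base word in an annotated transcript. The sets are the 200 members, the 304 other induced genes with a Dux KO share of at least 10%, and other tested genes. For the word the last set is all genes of the table. The figure labels the 304 genes equally induced, though their median WT ratio was lower. Members stand at 24% and 22% for span and neighbours. Neighbours include overlapping genes, and longer genes have a wider window. The 5% for the word follows from its choice as the one most members share, and genes left out by name, not drawn, hold it in 12.03%.

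Genes just inside and outside the limits had close values. By rank, the last members were Stmn4, Olfr329-ps and Csrnp3, with WT ratios of 14.7, 14.6 and 14.6, and the first left out were Fer1l6, Ccdc80 and Duxbl3, with 14.4, 14.4 and 14.2. By Dux KO share, Ankrd44, Ptgs2 and Mindy4 were inside at 9.79%, 9.46% and 8.74%, and Cx3cl1, Hnf4a and Epha6 outside at 10.5%, 10.6% and 10.9%. The lowest WT drug levels among members were 6.81, 6.83 and 8.50 CPM, in Olfr329-ps, Stmn4 and Olfr699, so the limit of 5 CPM did not bind.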

How the data were processed

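Poly(A) RNA-seq of 12 libraries in 6 groups of 2 was used. The authors deposited whole-number counts per Ensembl gene and FPKM values per library; TopHat2, DESeq and DESeq2 with build mm10 are named in the submitters' processing notes, with no versions. The read counter and strand setting are not stated in the sources used. Per the file headers, 6 further columns hold group averages and were not used. Dividing the deposited counts by FPKM gave a length proportional to the gene span, to within 1%, for 98.2% of 6811 genes, so introns are counted. Strand was not used: 2141 of 2145 genes nested in an opposite-strand gene never exceeded its counts. The deposited count column of Dux KO control library 2 equals that of Dux KO drug library 1 and was left out. Its deposited FPKM column is distinct and gave 55642359 reads back, with 99.9% of 1827 low values within 0.15 of a whole read.

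Testing used edgeR 4.0.16 (R 4.3.3) on the counts of 11 libraries, with 1 mean per group (filterByExpr at a minimum count of 10, TMM scaling, quasi-likelihood test, 5 residual degrees of freedom at most, Benjamini-Hochberg over 28643 genes). Alternatives used RLE scaling, no filter, DESeq2 1.42.0, limma 3.58.1 on log2(FPKM + 0.1), a block for the p53 KO line, the recovered library, and each library left out. The fit was tested on simulated data. Same-numbered p53 KO libraries come from the same line by their headers, and their deviations from the group means correlated at 0.434 across genes, so the numbers pair them. The design text calls the duplicates biological. Between 26.4% and 33.4% of counts of at least 500 were odd, so counts are not independent reads, and intervals and floors (3 counts per library) cover counting error only.

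The members and lists were chosen with earlier results of these data known. Names were taken from the count table, and 54495 of 54532 identifiers were found in GENCODE M21, which gave positions, spans and transcripts. RefSeq promoters gave the motif windows. Named genes were the 10 highest WT ratios, the 10 highest WT drug FPKM, the 10 smallest adjusted p among called members in p53 KO cells, 3 genes on each side of each limit, the 5 highest and 5 lowest p53 KO shares, members among the 2-cell genes, and the 4 highest FPKM of each role. One of them is not reported here. Roles were assigned from the symbol for 129 members. Figures were drawn from the same values.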

Additional observations from a re-analysis of the deposited data

How the results depend on the processing

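Membership depended modestly on the limits: other scalings, pseudocounts, levels and left-out libraries kept 165 to 200 of the 200 members, the fewest at a Dux KO limit of 5%, where 192 genes passed. The count of members that rose in p53 KO cells was 78 and became 146 with the replicate block for the line and 23 by limma on FPKM, where the median log2 fold change was 0.33 in place of 1.58. It was 38 of the 102 members that overlap no other gene. Leaving out each library in turn gave 39 to 138 members up and a median log2 fold change of 0.68 to 2.03. In Dux KO cells the count of members that rose was 40, and became 62 with the replicate block, 12 by limma on FPKM (6%, against 13.1% of all genes tested), 22 of the members that overlap no other gene, and 24 to 56 with each library left out. In WT cells all 102 members that overlap no other gene rose. The median log2 fold change of the members stayed positive under the alternatives run, in p53 KO, Dux KO and WT cells. Single members did reverse in p53 KO cells. Among them, Trim75, AA623943 and Fgfbp1 had positive log2 fold changes with all libraries and negative ones without p53 KO drug library 1. BB287469 had a negative value with all libraries and a positive one without p53 KO drug library 2. The recovered Dux KO control 2, put in place of control 1 after seeing the data, left 78 up in p53 KO cells, and added beside it left 63. In Dux KO cells it gave 46 members up in place of control 1, with a median log2 fold change of 0.91, and 48 when added. Without either control no Dux KO value could be had. The causes of these shifts were not tested. Levels under 3 counts, which include p53 KO controls of several olfactory receptors, set no fold.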
